A study of Drosophila melanogaster with 2 samples.

Results

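The regions described here are all those on chromosome 4 in the pooled fu2-GFP ChIP-seq list of Drosophila melanogaster embryos on the dm6 build, 222 of 30000 regions. Of these, 17 are also among the 3033 regions that passed the irreproducible discovery rate (IDR) threshold, which keeps regions that 2 replicates rank alike. The other 205 are listed below that threshold. The list was deposited as peaks and background for input to IDR, so the 205 can include background as well as weak binding. The material was whole embryos of mixed sex aged 0 to 24 h from the strain fu2-GFP. In this strain a transgene carries a GFP tag at the C terminus of the tagged protein, the labels give prg as the targeted gene, and DNA was recovered with an antibody against GFP. The 2 biological replicates, numbered 2 and 3 in the labels, form 1 group, with no other genotype, treatment or stage to compare. Whole embryos mix all cell types, so weak binding in many cells and strong binding in a few cannot be told apart.

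Chromosome 4, the dot chromosome, is the smallest of the fly. It is known for sequence rich in transposable elements, for heterochromatin marks and HP1a along its gene-bearing arm, and for the protein POF, which coats its active genes. Its genes are nevertheless transcribed, and several of them are regulators of development. A ChIP-seq summit is the position in a region where the caller placed the highest enrichment, and the signal value is the caller's measure of its strength. Ranked by signal, the chromosome 4 regions from rank 57 on had a deposited −log10 q-value of 1.29 or lower, down to 0.0209.

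The sequences below are the plus strand of dm6 around summits, chosen to show the strong peaks away from gene starts, the peaks at starts, and the words searched for. Capitals mark those words, read on either strand: TATCGATA, the site of the factor DREF; CAGCNCTA or CATCNCTA, called motif 7 of core promoters; CAACACTG, a word that came from an earlier look at these data; GAGAG, the GAGA repeat; GATAA, the GATA word; and CAGCTG, an E-box. A match describes letters in the window and is not a mapped binding site. Where a window held untranslated sequence it was shortened. For ATPsynbeta, 30 bp around a motif 7 match beside the summit, in untranslated sequence, are shown instead.
lncRNA:CR43437, chr4:424770-424870: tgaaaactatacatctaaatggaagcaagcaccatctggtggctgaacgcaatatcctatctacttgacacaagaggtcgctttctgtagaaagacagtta
Sox102F, chr4:807484-807584: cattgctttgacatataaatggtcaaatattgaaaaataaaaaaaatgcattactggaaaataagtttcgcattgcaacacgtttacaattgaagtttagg
zfh2, chr4:497808-497908: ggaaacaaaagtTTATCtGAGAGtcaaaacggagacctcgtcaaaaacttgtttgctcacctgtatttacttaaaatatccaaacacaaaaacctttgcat
RpS3A, chr4:67210-67310: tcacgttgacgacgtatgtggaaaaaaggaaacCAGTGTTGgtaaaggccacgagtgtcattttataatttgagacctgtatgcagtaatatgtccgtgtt
PlexA, chr4:1027160-1027260: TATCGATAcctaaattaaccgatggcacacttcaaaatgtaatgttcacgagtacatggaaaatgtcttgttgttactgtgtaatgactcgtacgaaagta
CG11076, chr4:1030976-1031051: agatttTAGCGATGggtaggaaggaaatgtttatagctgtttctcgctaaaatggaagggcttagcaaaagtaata
ATPsynbeta, chr4:1031828-1031857: accgatttgctCATCACTAggacttctgct
Arl4, chr4:179446-179546: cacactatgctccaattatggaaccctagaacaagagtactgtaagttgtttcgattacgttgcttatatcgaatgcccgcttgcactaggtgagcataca
Gyf, chr4:867083-867183: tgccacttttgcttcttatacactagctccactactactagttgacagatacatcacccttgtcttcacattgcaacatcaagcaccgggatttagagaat

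Chromosome 4 held fewer IDR peaks for its length than the other arms, and a similar number for its genes. Over the 1348131 bp of the chromosome there were 12.6 IDR peaks per Mb (exact Poisson 95% interval 7.35 to 20.2), against 22.8 on the other arms (22.0 to 23.6). When the same number of strongest regions, 3033, was taken from each replicate list, both replicates placed 16 of them on chromosome 4, which is 11.9 per Mb in each, against 22.8 on the other arms. The chromosome also had fewer protein coding genes per Mb, 59.3 against 104.6, and these were longer, with a median of 10090 bp against 2156 bp. Per 100 coding genes there were 21.3 IDR peaks on chromosome 4 and 21.8 on the other arms, with 20 against 21.8 in each replicate. The intervals cover counting over regions only, and 2 replicates of 1 group allow no test of the difference.

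The full list showed a mixed picture. It held 164.7 regions per Mb on chromosome 4 (143.7 to 187.8) against 224.7 elsewhere. In the replicate lists the density was 139.5 and 196.6 regions per Mb, a mean of 168.0 ± 40.4 (SD, n = 2), against 224.7 ± 0.411 (SD, n = 2) on the other arms. The replicate lists are of equal size and the other arms hold nearly all of each, so the small SD there follows from that size. Both replicates lay below the other arms, but the gap of replicate 3 was smaller than the spread between the replicates: replicate 2 listed 188 regions on the chromosome and replicate 3 listed 265. Per 100 coding genes the order was the opposite, with 277.5 listed regions on chromosome 4 against 214.8 on the other arms, and with 235 and 331.3 in replicates 2 and 3.

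**Figure D1:**
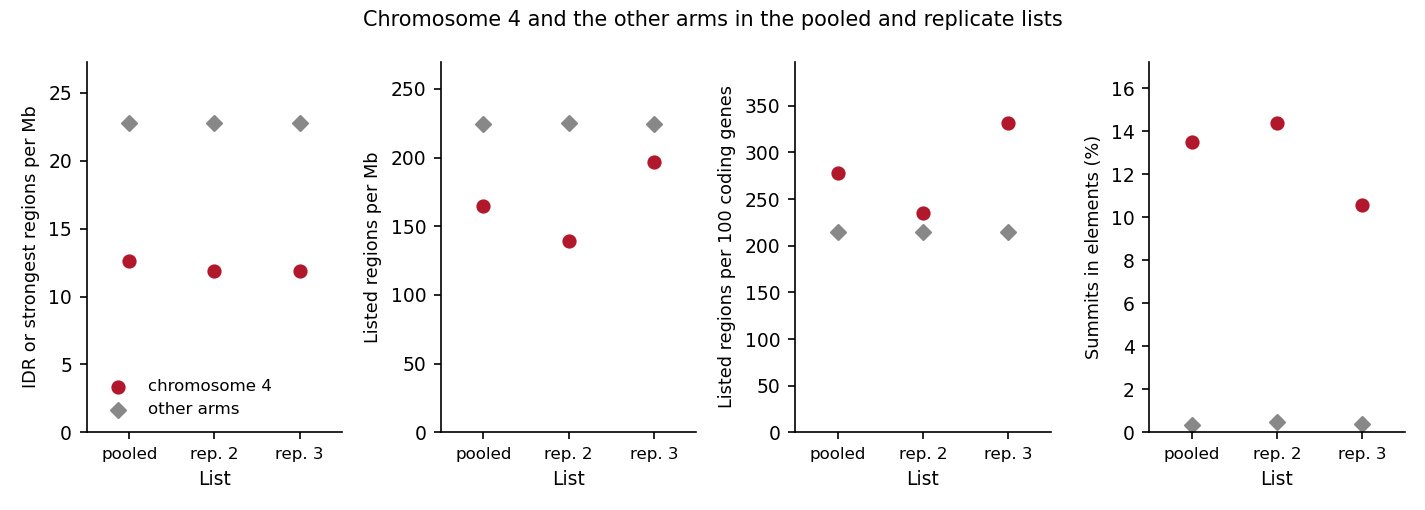
Chromosome 4 (circles) and the other arms together (diamonds) in the pooled list and in each replicate list. From left to right the vertical axes give IDR peaks (in replicates, the strongest 3033 regions) per Mb, listed regions per Mb, listed regions per 100 protein coding genes, and the percentage of summits in annotated transposable elements; chromosome 4 lay below the other arms in all 3 lists for the first 2 and above them in all 3 lists for the last 2.

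Of the 222 listed regions, 17 were IDR peaks, 7.66% (exact binomial 95% interval 4.52 to 12.0%). Over the whole list 10.1% of regions were IDR peaks, which lies inside that interval. In the replicates the strongest 3033 regions made up 8.51% and 6.04% of the chromosome 4 regions, a mean of 7.27 ± 1.75% (SD, n = 2), against 10.1 ± 0.0185% on the other arms. The same number was marked in lists of equal size, so the small SD on the other arms is fixed by construction and measures no agreement.

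The signal of the chromosome 4 regions matched the other arms in the middle of the distribution and was lower at the top, where chromosome 4 has few regions. The median signal value was 21.8 against 22.0, and the upper quartile 33.1 against 33.3. The 95th percentile was 77.3 against 97.9, and the highest value on chromosome 4 was 217.1, rank 300 in the whole list, against 1729 on the other arms. None of the 17 IDR peaks exceeded a signal of 500, where 50 of 3016 elsewhere did, and 1 exceeded 200, where 366 elsewhere did. With 17 peaks, these counts cannot show a shortfall against the other arms. The highest values come from lists of unlike size, 222 regions against 29778. The median over IDR peaks was 83.2 against 97.4. All but 3 of the 17 ranked below the first 1000 regions of the list.

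**Figure D2:**
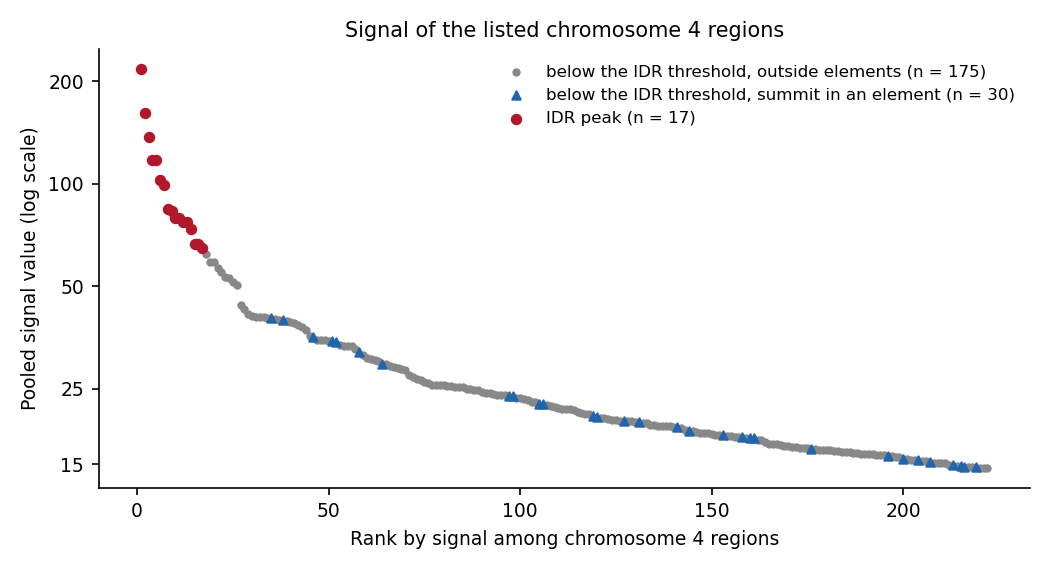
Pooled signal value (log scale) of all 222 chromosome 4 regions against their rank on the chromosome, with IDR peaks as red circles, other regions as grey dots and summits in annotated transposable elements as blue triangles. The IDR peaks run from 217.1 down to 64.9, and no summit in an element reaches above 40.4.

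The strongest regions of the chromosome did not lie at gene starts. The first, chr4:1113217-1113417, had a signal of 217.1 in the pooled list, 94.6 in replicate 2 and 129.6 in replicate 3. Its summit lay where the 3′ untranslated regions of Cals and sv, genes on opposite strands, overlap, 9689 bp downstream of the start of Cals. Cals encodes calsyntenin, a synaptic membrane protein of the cadherin family, and sv (shaven) encodes a Pax transcription factor. The second, chr4:424730-424890, had a signal of 161.5, with 60.9 and 97.7 in replicates 2 and 3, and lay between genes, 1247 bp upstream of the long noncoding RNA lncRNA:CR43437. The nearest coding genes were dati, 29215 bp away, and lgs, 12137 bp away, a zinc finger gene and a gene of the Wingless pathway. These were the 2 regions of the chromosome narrower than the usual 404 bp, at 201 and 161 bp. Among IDR peaks of the other arms 622 of 3016 were narrower, 20.6%, and among their regions below the threshold 6 of 26762.

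Sox102F, which encodes a Sox-family transcription factor, had the third strongest peak, and a further one next to it. The stronger, at chr4:807332-807735, had signals of 137.1 in the pooled list, 47.6 in replicate 2 and 84.8 in replicate 3, with its summit 187 bp upstream of a start. The neighbour at chr4:807534-807937 had 73.5, 23.5 and 50.1, with its summit 389 bp upstream. The deposited regions of the pair overlap, so they need not be separate sites.

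Asator and the sequence from there to zfh2 held 3 of the remaining peaks away from starts. Asator encodes a tau-tubulin kinase and zfh2 a zinc finger homeodomain protein. One peak, at chr4:486491-486894, lay in an intron of Asator, 660 bp upstream of an inner start, with signals of 117.3 in the pooled list and 47.7 and 76.4 in replicates 2 and 3. Another, at chr4:489328-489731, lay 536 bp upstream of Asator, just beyond the 500 bp taken here as the promoter distance, with 66.5, 23.6 and 41.6. The third, at chr4:497656-498059, lay 3952 bp upstream of zfh2 with 102.4, 30.7 and 75.9. The last peak away from a start, at chr4:982726-983129, had 84.5, 25.1 and 61.6 and lay between fuss, 4439 bp away, and toy, 6797 bp away, which encode a Ski-family protein and a Pax6 transcription factor and point away from each other.

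Peaks at starts included those of genes that act in translation and RNA silencing. RpS3A, a protein of the small ribosomal subunit, had a peak at chr4:67058-67461 with a signal of 117.2 in the pooled list, 53.0 in replicate 2 and 63.6 in replicate 3. The peak of gw, whose protein acts in microRNA-mediated silencing, at chr4:659857-660260 had 99.0, 34.1 and 68.3. Gyf, a GYF-domain gene of translational repression, had 79.4, 44.1 and 33.2 at chr4:866931-867334, and was the only IDR peak of the chromosome with the higher signal value in replicate 2. Signal values of separately called lists are not on a shared scale, so ranks are the fairer reading. Gyf ranked 1138 in replicate 2 and 4054 in replicate 3, but by rank it was not alone. The peaks at the Cals and sv overlap, lncRNA:CR43437, the Asator intron, RpS3A, CaMKII and ATPsynbeta also ranked higher in replicate 2. The other IDR peaks ranked higher in replicate 3.

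The other peaks at starts had pooled signals between 64.9 and 83.2. Arl4, a small GTPase, had 83.2, 29.5 and 51.3, and PlexA, a semaphorin receptor, had 77.2, 29.6 and 49.6. CaMKII, the calcium and calmodulin dependent kinase, had 66.4, 23.7 and 38.3. CG11360 had 79.2, 29.1 and 50.1. CG11076 and ATPsynbeta, the beta subunit of mitochondrial ATP synthase, are neighbours. The peak at CG11076, with 77.3, 23.1 and 54.4, lay within 500 bp of starts of both genes, and the next peak, with 64.9, 27.2 and 37.9, lay in the 5′ untranslated region of a longer ATPsynbeta transcript.

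**Figure D3:**
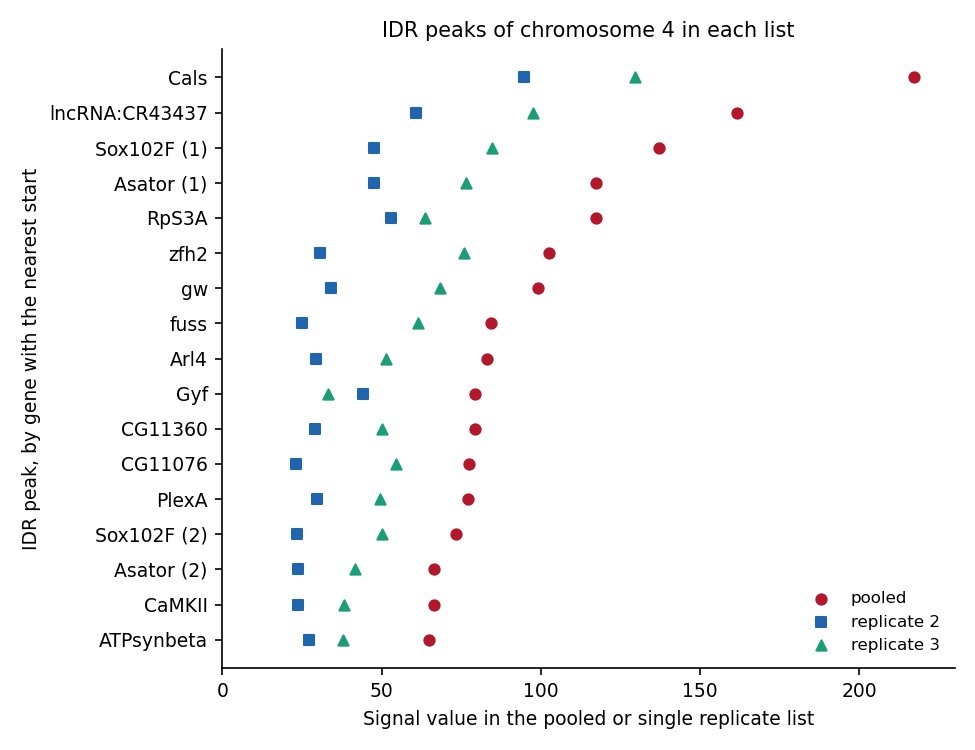
Signal value of the 17 IDR peaks of chromosome 4 in the pooled list (red circles), replicate 2 (blue squares) and replicate 3 (green triangles), ordered by pooled signal and named by the gene with the nearest start. The 3 lists were called separately and their scales differ; Gyf is the peak where the value of replicate 2, 44.1, exceeds that of replicate 3, 33.2.

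Every one of the 17 IDR peaks had a region with its summit within 100 bp in both replicate lists. Such matches follow largely from the IDR selection, which rests on these replicates. By overlap of regions, all 17 were in both lists, as were 3012 of 3016 IDR peaks on the other arms. Of the 17, 13 were among the strongest 3033 regions of replicate 2, 14 among those of replicate 3 and 11 among both, against 71.1% among both for IDR peaks of the other arms. The lowest rank of any was 3256 in replicate 2 and 4054 in replicate 3. IDR peaks were the regions with the highest signal of the pooled list, so the threshold on chromosome 4 fell between ATPsynbeta, at 64.9, and a region 56 bp upstream of anne, at 62.2.

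Among the 10 strongest regions just below the threshold, 9 lay within 500 bp of a start. They were at anne, at Asator (59.0), lgs (59.0), Rnf11 (56.5), PlexB (55.1), Crk (53.3), CaMKII (51.5), Dyrk3 with Cadps (50.4) and CG32017 (44.0). PlexB, like PlexA, is a semaphorin receptor, Crk is an adaptor of receptor kinase signalling, and Rnf11 is a RING-finger gene. The remaining region lay in an untranslated region of myo (53.0), the gene of the TGF-beta ligand myoglianin. Ranks in the replicates could differ widely: lgs ranked 7003 in replicate 2 and 2887 in replicate 3, and the Dyrk3 region had no match within 100 bp in replicate 3.

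For all listed regions, overlap of at least 1 bp with a region of both replicate lists was less frequent on chromosome 4. It was found for 95 of 222 regions, 42.8% (36.2 to 49.6%), against 52.7% over the whole list. Without the IDR peaks it was 78 of 205, 38.0%, against 47.4% on the other arms. The rest were not shared evenly, since 84 regions overlapped one of replicate 3 alone, 31 one of replicate 2 alone and 12 neither. For the 63 regions with a summit within 100 bp in both lists, Spearman's rho between the signal values in replicate 2 and in replicate 3 was 0.777, against 0.724 for 10000 such regions elsewhere, as a description over regions of the same libraries.

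By location, the share of IDR peaks at starts on chromosome 4 was close to that elsewhere, with too few of the stronger ones to tell. Of the 17, 11 had their summit within 500 bp of a transcription start, 64.7% (38.3 to 85.8%), against 63.7% on the other arms. Among IDR peaks at or above the median signal of all IDR peaks it was 3 of 7, 42.9%, against 66.5% on the other arms. With 7 peaks these shares could not be told apart. The strongest 16 regions of replicates 2 and 3 gave 68.8% and 62.5%. Introns held 1 of the 17, against 26.3% of IDR peaks elsewhere, and sequence between genes held 4, 23.5% (6.81 to 49.9%), against 8.19% elsewhere. None was in a coding exon.

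Regions below the threshold lay at starts somewhat more often than elsewhere, at the edge of what the counts can tell. The count was 76 of 205, 37.1% (30.4 to 44.1%), against 30.3%, and with starts of coding transcripts alone 31.7% against 27.8%. In the weaker regions of the replicate lists it was 32.6% and 34.1%, against 25.8% and 31.4% on the other arms. Introns held 23.4% of them against 35.6%, coding exons 18.0% against 15.2%, and sequence between genes 16.1% against 14.7%. Sequence within 500 bp of a start made up 10.7% of the chromosome and 13.6% of the other arms.

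Strong peaks at starts lay on the upstream side, and weaker regions lay on both sides. All 11 IDR peaks at starts had their summit upstream of the nearest annotated start (exact interval 71.5 to 100%). The median was 104 bp and the range 26 to 389 bp, and 9 of the 11 were within 150 bp of the start. The summits at Sox102F, gw, CG11076, CaMKII and ATPsynbeta lay inside the gene, upstream of an inner start. The overlapping pair at Sox102F counts as separate peaks in the interval. On the other arms 80.5% of IDR peaks at starts were upstream, with a median 71 bp upstream. Of the 76 weaker regions at chromosome 4 starts, 41 were upstream, 53.9% (42.1 to 65.5%), with a median 9 bp upstream, and elsewhere 45.3% were, with a median 18 bp downstream.

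**Figure D4:**
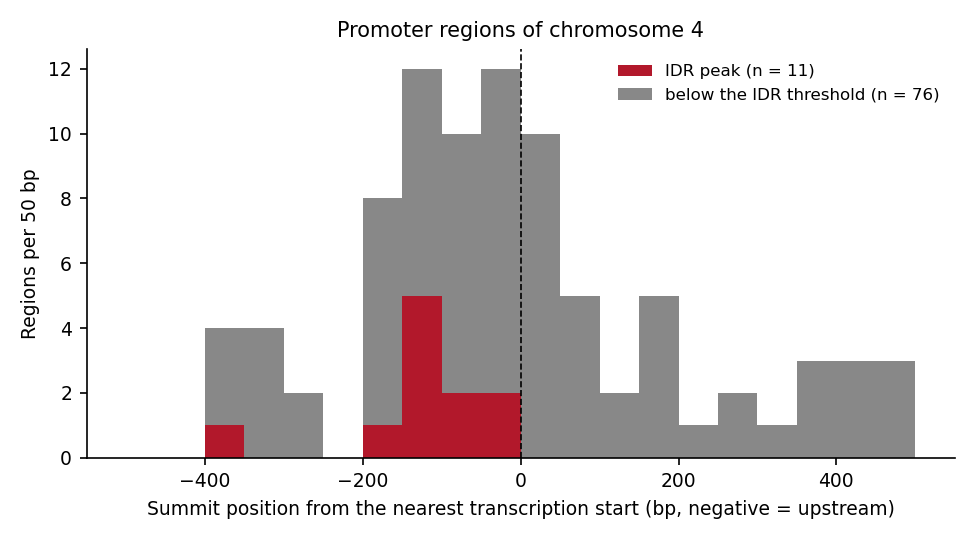
Summit position relative to the nearest transcription start (bp, negative is upstream) for the 87 chromosome 4 regions within 500 bp of a start, as stacked counts per 50 bp. The 11 IDR peaks (red) are all upstream, 9 of them within 150 bp, and the 76 weaker regions (grey) lie on both sides.

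Seen from the genes, the share of chromosome 4 starts with an IDR peak could not be told from that of all genes, and the share with any listed region was higher in the pooled list. Of 80 protein coding genes, 10 had an IDR peak summit within 500 bp of a start, 12.5% (6.16 to 21.8%), against 17.5% of all coding genes. In the replicates the share was 17.5% and 11.3%, so the spread between replicates spans that value. Any listed region stood at the start of 55 genes, 68.8% (57.4 to 78.7%), against 55.8% of all coding genes. Replicate 2 alone gave 44 genes, 55.0%, against 52.0% on the other arms, and replicate 3 gave 59, 73.8%, against 56.0%. Of the genes with any region at a start, an IDR peak was present at 18.2% on chromosome 4 (9.08 to 30.9%) and at 31.5% on the other arms (30.5 to 32.5%).

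The coding genes were also read by role, beside the 12.5% of all 80 with an IDR peak at a start and the 68.8% with any region at a start. The lists were drawn up with earlier results of these data known, so the counts describe the chromosome and are no independent evidence. Among 7 genes of translation, RNA and energy, 4 had an IDR peak at a start, RpS3A, gw, Gyf and ATPsynbeta, and the other 3, ND-49, eIF4G1 and 4E-T, had a weaker region. Their median best signal at a start was 77.3, beside 37.1 over the 55 coding genes with any region at a start. That 77.3 is the value for ATPsynbeta and comes from the peak at CG11076, a gene outside the list, which lay within 500 bp of starts of both. Among 18 transcription and chromatin regulators, Sox102F was the 1 with an IDR peak at a start, and 12 had any region at a start. The 12 included ci, the effector of Hedgehog signalling, pan, the TCF of the Wingless pathway, pho, a Polycomb recruiter, and ey, a Pax6 gene. The median for the regulators was 36.0. Among the 6 regulators without a region at a start were toy, onecut and fuss.

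Of 10 signalling genes, PlexA alone had an IDR peak at a start, and 8 had any region at a start. Among the 8 were Eph, a receptor kinase, and the TGF-beta ligands mav and Actbeta. Of 8 neuron and synapse genes, none had an IDR peak at a start and 2, Cals and Cadps, had any region at a start. Those without one at a start included unc-13 and Syt7, genes of synaptic vesicle release, and the glutamate receptor mGluR. With regions inside the gene counted too, 5 of the 8 had a region, among them unc-13 with 4. All 3 structural and lipid transport genes, Ank, bt and apolpp, had a weaker region, at a median of 25.9. The 34 coding genes in no list included Arl4, CG11360, CG11076 and CaMKII with an IDR peak at a start, and 23 had any region at a start. In 38 noncoding genes and pseudogenes, 17 had a listed region at a start and none an IDR peak. The shares for such genes on the other arms were not computed, so neither count can be set beside one. Some of these regions also lay at a coding start, such as the one at ci.

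**Figure D5:**
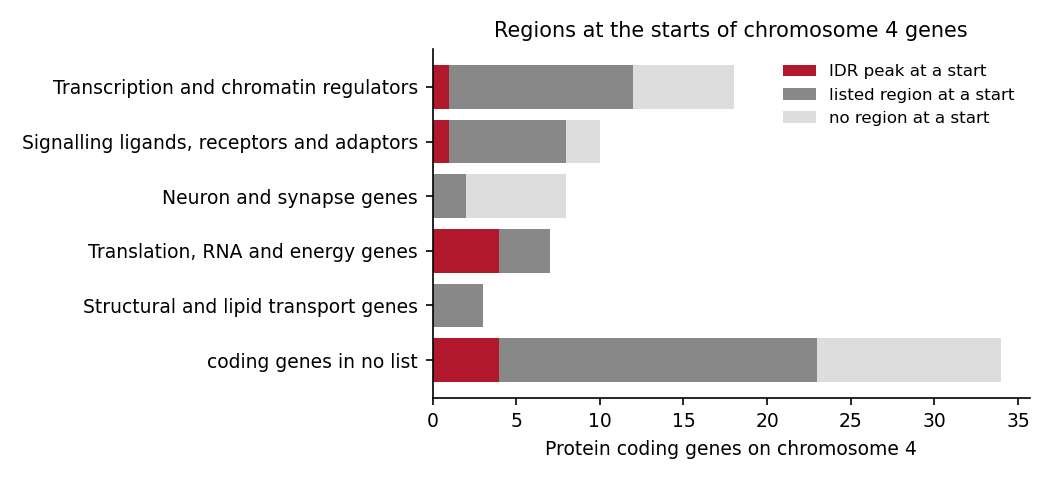
Protein coding genes of chromosome 4 by list, with an IDR peak at a start (red), a listed region below the threshold at a start (dark grey) or no region at a start (light grey). Genes of translation, RNA and energy have 4 of 7 in red, and neuron and synapse genes have 6 of 8 with no region at a start.

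Long genes held several weak regions each. The most were in zfh2, with 8 in 39065 bp and a highest signal of 25.5, and in ey, with 7 in 23485 bp and a highest of 20.1. bt, which encodes the muscle protein projectin, held 5 in 52075 bp, none above 25.3. In 12 coding genes there was no region in the gene or at its start, among them yellow-h, NfI, fd102C and mGluR.

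Along the chromosome the regions were not evenly spread. Of the segments of 100 kb, the one at chr4:400001-500000 held the most, 34 regions with 4 IDR peaks, which are those of lncRNA:CR43437, Asator and zfh2. The segment chr4:1000001-1100000 held 21 regions and also 4 IDR peaks, those of PlexA, CG11076, ATPsynbeta and CaMKII. By contrast chr4:200001-300000, with 8 coding gene starts, held 8 regions and no IDR peak. The last segment, chr4:1300001-1348131, where 95.4% of bases are annotated transposable elements, held none in the pooled or either replicate list. At chr4:900001-1000000 replicate 2 listed 11 regions and replicate 3 listed 27, whereas at chr4:800001-900000, the segment of Sox102F and Gyf, the order was the opposite, with 18 and 9.

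Transposable elements held many chromosome 4 summits, none with a signal above 40.4. Annotated elements covered 24.8% of the chromosome and 5.74% of the other arms. Their summits numbered 30 of 222, 13.5% (9.31 to 18.7%), against 0.326% on the other arms, and the replicates gave 14.4% and 10.6% against 0.486% and 0.377%. The share of summits was thus 0.545 times the share of bases on chromosome 4 and 0.0567 times elsewhere. All 30 were below the IDR threshold, with signals from 14.7 to 40.4. None of the 17 IDR peaks had its summit in an element, though 2 touched one. Over all chromosome 4 regions 7.66% were IDR peaks, and on the other arms 6 of 97 summits in elements were. With 30 summits and 17 peaks, these counts of none cannot show a shortfall. Reads from repeated sequence can be hard to place; no source used here says how the authors treated them, and the part of read placement in these counts was not tested.

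Most of these summits were in INE-1, a short, ancient element scattered in many copies. It accounted for 25 of the 30, 11.3% of summits (7.42 to 16.2%), from 344 copies that cover 7.22% of the chromosome. On the other arms INE-1 covered 0.340% of bases and held 0.165% of summits. The ratio of the summit share to the base share was therefore 1.56 on chromosome 4 and 0.483 elsewhere. The element 1360 covered 3.79% and held 3 summits, and the telomeric elements HeT-A and TART-A, at 3.28% and 1.94% of bases, held none. Regions with a summit in an element overlapped both replicate lists in 14 of 30 cases, 46.7% (28.3 to 65.7%), and the other regions below the threshold in 64 of 175, 36.6% (29.4 to 44.2%).

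IDR summits had the same median GC content on chromosome 4 and elsewhere, and weaker summits differed. In the 101 bp around the summit the median GC content was 36.6% for the 17 IDR peaks, the same as for IDR peaks elsewhere. For the regions below the threshold it was 38.6% on chromosome 4 and 45.5% elsewhere, where the chromosome as a whole had 35.2% and the other arms 42.2%. The weaker regions were thus higher in GC than the sequence they lay in, on chromosome 4 as on the other arms. IDR peaks were above it on chromosome 4 and below it on the other arms.

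The longer words were found in few windows. TATCGATA was in 1 of 17 IDR peaks, that of PlexA, and in 6 of 205 other regions, 2.93% (1.08 to 6.26%), against 2.98% and 0.930% on the other arms and 1.15% of all listed regions. Motif 7 was in 2 of 17, CG11076 and ATPsynbeta, and in 6 of 205, against 4.54% and 1.97% elsewhere and 2.24% of all. CAACACTG was in 1 of 17, RpS3A, and in 1 of 205, against 3.85% and 0.549% elsewhere and 0.883% of all. The short words GAGAG and GATAA, which occur in 12.6% and 18.3% of all windows, were in 2 and 3 of the 17 and in 22 and 40 of the 205. CAGCTG, in 5.64% of all, was in none of the 17 and in 7 of the 205. With 17 peaks, 1 match has an exact interval of 0.149 to 28.7%, so the shares of IDR peaks could not be told from those of the other arms. Below the threshold, the interval for TATCGATA lay above the share of the other arms, and no test of that difference was made.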

How the data were processed

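The authors deposited peak lists in narrowPeak format from 2 replicates of fu2-GFP embryos, with chromatin sheared to 200 to 800 bp per the labels. Each build has 4 lists, for each replicate, the pool and the IDR peaks, and the file manifests derive the pooled list from both alignments together. The deposited values are a signal value, the −log10 of a q-value and a summit per region. The sources used here do not name the aligner, caller, IDR threshold or read filters. No reads are listed, so depth is unknown. A control library was not analysed here.

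Regions were placed on the dm6 genome (Release 6) and Ensembl release 115 (BDGP 6.54) with Python 3.11.15, pandas 2.3.3, numpy 2.4.6 and scipy 1.17.1. Coordinates are 1-based. The dm3 lists gave counts and signal alone. Summits up to 500 bp from any annotated start counted as promoter summits, and the rest went to the first that applied of coding exon, untranslated region, other exon, intron and intergenic. In the replicate lists the strongest 3033 regions took the place of IDR peaks. Intervals are exact, at 95%. The code was tested on simulated regions. Members, gene lists and words were chosen with earlier results of these data known. The text names all IDR peaks, the 10 strongest other regions and genes of the lists; yellow-h and the elements were named after their values were seen.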

Additional observations from a re-analysis of the deposited data

How the results depend on the processing

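The 17 IDR peaks leave wide intervals, and no list states a depth. No paired analysis was possible because the 2 replicates form 1 group. Of 52 alternatives, 25 moved a value by less than 1 SD between the replicate lists or, for the share found in both replicates, kept it in its 95% interval. The alternatives that leave out a replicate use the very values that set this SD, so for them the count is no independent check. For IDR peaks per Mb and median GC that SD was 0, so any change in these exceeded it. No dm3 density was computed because no dm3 length was used. The cause of the changes below was not tested beyond what each setting does by construction.

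With the stronger part of the IDR peaks alone, 7 peaks, the IDR share was 3.15% and the density 5.19 per Mb. The promoter share was 42.9% for these and 39.1% for the rest, and 3.75% of coding genes had one at a start. For the stronger part, the other arms gave a promoter share of 66.5%, but 7 peaks are too few to tell whether the shares differ. Leaving out each replicate gave 11.9 IDR peaks per Mb both times, promoter shares of 32.6 to 34.1% below the threshold, 11.25 to 17.5% of coding genes, a median GC of 37.6% both times, 10.6 to 14.4% of summits in elements and a median signal percentile of 50.4 to 54.2, beside 49.0 in the pooled list. Merging overlapping regions gave 11.9 IDR peaks per Mb. A start distance of 200 bp gave promoter shares of 58.8% and 26.3%, and 1000 bp gave 76.5% and 52.2%. Coding transcripts alone gave 31.7% below the threshold. Median GC was 37.3% in 100 bp on each side and 36.4% over whole regions. Summits within 100 bp in both replicates were found for 28.4%, and 24.3% of regions had any base in an element. Without N bases the density was 12.8 IDR peaks per Mb. Counted outside annotated elements, an alternative chosen after seeing the data, it was 16.8 IDR peaks and 218.9 listed regions per Mb, against 24.1 and 238.4 on the other arms.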
